A study of Mus musculus with 24 samples.

Results

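Bile acid synthesis and transport in the mouse liver was followed through 10 named genes, listed by symbol as a pathway, with earlier results of these data known and without a threshold on any measured value. They were 4 synthesis enzymes (Cyp7a1, Cyp8b1, Cyp27a1 and Cyp7b1), 1 conjugating enzyme (Baat), 3 transporters (Abcb11, Slc10a1 and Slco1b2) and 2 nuclear receptors that regulate the pathway (Nr0b2 and Nr1h4). All 10 were among the 21755 genes of the p16-3MR table, and 9 of 10 could be identified among the 12643 of the wild-type table. Slco1b2 could not, because its shortened row label there fits a second gene as well. The RNA came from 24 livers in 8 groups of 3, split by genotype, sex and treatment.

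The p16-3MR mice carry a transgene in which the p16Ink4a promoter drives the 3MR cassette, whose viral thymidine kinase turns ganciclovir (GCV) into a toxic product, so that GCV removes cells in which p16 is active. These mice, male and female, entered treatment at 16 to 18 months of age. They received GCV at 150 mg/kg by the sample labels (the study's methods state a lower dose) or vehicle (VEH, water at pH 11) by intraperitoneal injection on 5 consecutive days each month, and the methods place the RNA livers in the third year of life. The wild-type mice, of both sexes, carry no transgene and were treated in the same way from 6 months of age for 3 months, so they were younger, although the labels call them age-matched. All 12 p16-3MR libraries are batch 1 and all 12 wild-type libraries batch 2, so transgene, age, length of treatment and batch cannot be told apart, and no test was made between the tables.

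Bile acids are made from cholesterol in hepatocytes. The classical route begins with Cyp7a1, the rate-limiting 7-alpha-hydroxylase, and Cyp8b1 then directs intermediates towards cholic acid. The alternative route begins with Cyp27a1, which oxidizes the sterol side chain, and continues through Cyp7b1, the oxysterol 7-alpha-hydroxylase. Baat joins the finished acids to taurine or glycine, Abcb11 (the bile salt export pump) secretes them into bile, and Slc10a1 (NTCP) and Slco1b2 take them back up from blood. Bile acids activate Nr1h4 (FXR), which induces Nr0b2 (SHP), a repressor of Cyp7a1 and Cyp8b1.

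In GRCm38 with the GENCODE M21 annotation, all 10 are protein-coding genes. The synthesis genes are Cyp7a1 at chr4:6265612-6275633, Cyp8b1 at chr9:121914356-121916305 and Cyp7b1 at chr3:18071950-18243338, all on the minus strand, and Cyp27a1 at chr1:74713574-74737892 on the plus strand. Baat lies at chr4:49489422-49506557, Abcb11 at chr2:69238282-69342616 and Slc10a1 at chr12:80953183-80968705, all on the minus strand, and Slco1b2 at chr6:141629518-141686646 on the plus strand. Nr0b2 lies at chr4:133553376-133556536 on the plus strand and Nr1h4 at chr10:89454234-89533585 on the minus strand.

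The 250 bases before the start of 4 of these genes are shown, because Slc10a1 and Cyp8b1 differed between the sexes in the wild-type livers and Abcb11 and Nr0b2 are the targets through which FXR is best known to act. The sequences are RefSeq's for GRCm38.p6, which gave a promoter for 7 of the 10 members, and not for Cyp7a1, Cyp7b1 and Baat. Capitals mark matches, on either strand, to 4 motifs: AGGNCA followed after any 1 base by TGNCCT (the inverted repeat read by FXR), CAAGGNC (a site of Nr5a2, also called LRH-1), CAAAGTCCA (a site of Hnf4a) and TTCNNNGAA (a site of STAT5, which growth hormone activates). A match describes letters and does not show that a factor is bound. The windows, written in the direction of transcription, are chr9:121916306-121916555 (minus strand), chr12:80968706-80968955 (minus strand, the first of 2 starts given), chr2:69342617-69342866 (minus strand) and chr4:133553126-133553375 (plus strand).
Cyp8b1: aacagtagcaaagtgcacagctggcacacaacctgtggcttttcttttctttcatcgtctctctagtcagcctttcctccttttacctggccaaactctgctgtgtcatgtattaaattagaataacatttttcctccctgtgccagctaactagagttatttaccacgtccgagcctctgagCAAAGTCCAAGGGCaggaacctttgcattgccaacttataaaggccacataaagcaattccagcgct
Slc10a1: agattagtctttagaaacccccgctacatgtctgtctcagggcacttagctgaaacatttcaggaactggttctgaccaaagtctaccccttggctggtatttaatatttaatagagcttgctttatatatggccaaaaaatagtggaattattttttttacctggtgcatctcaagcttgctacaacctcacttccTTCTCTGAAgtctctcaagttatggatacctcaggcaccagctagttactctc
Abcb11: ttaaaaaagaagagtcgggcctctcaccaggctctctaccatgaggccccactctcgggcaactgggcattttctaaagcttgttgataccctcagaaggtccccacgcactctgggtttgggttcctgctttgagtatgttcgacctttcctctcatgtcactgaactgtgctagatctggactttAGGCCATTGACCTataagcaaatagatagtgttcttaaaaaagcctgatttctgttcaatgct
Nr0b2: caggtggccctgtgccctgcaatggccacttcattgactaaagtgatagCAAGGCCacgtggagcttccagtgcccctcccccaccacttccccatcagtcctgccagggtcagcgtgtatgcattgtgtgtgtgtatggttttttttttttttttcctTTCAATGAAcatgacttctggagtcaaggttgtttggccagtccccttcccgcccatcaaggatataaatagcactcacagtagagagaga

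The FXR repeat AGGCCATTGACCT lay 63 to 51 bases before the start of Abcb11, and a match to the same motif, AGGACAGTGACCT, lay 88 to 76 bases before that of Slco1b2. Of 32851 promoters, 0.0852% held this motif in the same window. In Cyp8b1, the Hnf4a site began 67 bases before the start and shared its last 2 bases with an LRH-1 site. In the same windows, 0.384% of promoters held the Hnf4a site and 15.0% the LRH-1 site, which also occurred once in Nr0b2. The STAT5 motif, found in 7.02% of promoters, occurred once each in Slc10a1, Nr0b2 and Slco1b2.

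Libraries held 5005760 to 7160172 counts in p16-3MR livers and 3084517 to 5667904 in wild-type livers. Levels are normalised counts on the CPM scale, relative to the TMM-scaled library size. Differences are log2 fold changes, female over male or GCV over VEH, with standard errors (SE) from edgeR's quasi-likelihood test. A gene was called at a Benjamini-Hochberg adjusted p under 0.05 over all rows of its table. Among the p16-3MR livers, 3 stood apart. F GCV 33 had 64.0% of its counts on mitochondrially encoded genes and a TMM factor of 0.259. M GCV 32 and M VEH 24 had TMM factors of 1.80 and 1.64 and summed levels of 7 hepatocyte markers of 26068 and 40970 CPM, against 81591 to 118789 CPM in the 9 other livers. Their summed levels of 6 Kupffer cell markers were 2828 and 1683 CPM, against 108 to 932 CPM in those 9. No marker on the lists for hepatocytes and 7 other cell types was at 0 in every liver of either table. Fewer hepatocytes and less RNA per hepatocyte cannot be told apart in such bulk samples.

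In the young wild-type livers, the comparison of 6 females with 6 males asked how the pathway differs between the sexes, whatever the treatment. Of the 9 measured members, 4 were called, 1 higher and 3 lower in females: Slc10a1 rose, and Cyp7b1, Cyp8b1 and Baat fell. The share of all genes called was 7.94%, with 3.89% higher and 4.05% lower. In VEH livers alone 3 of the 9 were called (Slc10a1 higher, Cyp7b1 and Baat lower), against 3.82% of all genes, 1.82% higher and 2% lower. The median difference was -0.12 on the log2 scale over the 9 members and 0.03 over all genes. Cyp27a1, Abcb11, Nr0b2, Nr1h4 and Cyp7a1 were not called.

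Cyp7b1 had the largest difference of the members. Its levels in females were 38.9, 34.2 and 40.7 CPM under GCV and 42.6, 28.1 and 27.5 CPM under VEH. Those in males were 518, 325 and 451 CPM under GCV and 485, 349.7 and 359 CPM under VEH. The sexes were far apart, with every male above every female and no ordering by treatment. The means were 35.3 ± 6.47 CPM in females and 415 ± 80.1 CPM in males (SD, n = 6 each), 11.7-fold higher in males. The log2 difference was -3.55 (SE 0.13, adjusted p = 1.11e-14 by edgeR), and in VEH livers alone it was -3.59 (SE 0.19, adjusted p = 8.52e-12).

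Slc10a1, the sodium-dependent uptake carrier of the sinusoidal membrane, was the member higher in females. Female levels were 567, 548 and 555 CPM under GCV and 549, 565 and 568 CPM under VEH. Male levels were 424, 450.3 and 394 CPM under GCV and 425, 367 and 376 CPM under VEH. The sexes did not overlap, and the 6 females lay within a narrow band. The difference was 0.46 (SE 0.07, adjusted p = 6.43e-05), and 0.53 (SE 0.10, adjusted p = 0.00140) in VEH livers. Slc10a1 and Cyp7b1 were the 2 members whose sexes did not overlap over both treatments, a pattern held by 4.77% of all genes in the table.

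Cyp8b1, which sets the share of cholic acid, was lower in females. Female levels ran from 152 to 266 CPM around a median of 189 CPM, and male levels from 233 to 362 CPM around a median of 275 CPM, so that the ranges overlapped. The difference was -0.52 (SE 0.12, adjusted p = 0.00591). In VEH livers alone it was -0.39 (SE 0.16, adjusted p = 0.248) and was not called, but without F VEH 5, the female with the highest level, it was -0.67 (adjusted p = 0.00726), and without F VEH 4, the female with the lowest, -0.23 (adjusted p = 0.560). The other 11 of the 12 fits that left out 1 liver did not call it.

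Baat was lower in females by a smaller amount, with 116 to 167 CPM in females and 146 to 179.7 CPM in males. The difference was -0.27 (SE 0.08, adjusted p = 0.0383). This call did not hold when any 1 of 7 livers was left out (F GCV 5, F GCV 6, F VEH 4, F VEH 5, M GCV 2, M GCV 3 or M VEH 2), where it was -0.27 to -0.23 with adjusted p between 0.0570 and 0.125. In VEH livers Baat was called at -0.41 (SE 0.11, adjusted p = 0.0446), with 124, 116 and 129.8 CPM in females below 156, 179.7 and 154 CPM in males. That call was lost without any of F GCV 4, 5 and 6, F VEH 4, 5 and 6, M VEH 2 and M VEH 3, at -0.45 to -0.33 with adjusted p between 0.0552 and 0.245.

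Cyp7a1 leaned to females but was not called. Female levels were 176, 166 and 188 CPM under GCV and 142, 331 and 109.6 CPM under VEH. Male levels were 92.8, 147 and 209.7 CPM under GCV and 129, 71.7 and 82.6 CPM under VEH. The sexes overlapped, and F VEH 5 lay well above the rest. The difference was 0.64 (SE 0.21, 95% interval 0.20 to 1.09, adjusted p = 0.0729). Left out 1 at a time, F VEH 4 (0.73), F VEH 6 (0.78), M GCV 3 (0.80) and M VEH 1 (0.78) each brought it under the threshold, at adjusted p between 0.0118 and 0.0360, whereas without F VEH 5 it was 0.33 (adjusted p = 0.290). In VEH livers it was 1.04 (SE 0.31, adjusted p = 0.0622). It was called there without F VEH 4, F VEH 6, M GCV 1, M GCV 2, M GCV 3 or M VEH 1, at 1.03 to 1.33 with adjusted p between 0.00789 and 0.0495, and was 0.42 (adjusted p = 0.528) without F VEH 5.

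In VEH livers alone the sexes did not overlap for Abcb11 and Slc10a1, higher in females, and for Baat and Cyp7b1, lower, a pattern held by 18.5% of all genes there. Over both treatments the remaining members were closer between the sexes. Cyp27a1, first enzyme of the alternative route, was 236 to 266 CPM in females and 243 to 289.7 CPM in males, a difference of -0.12 (95% interval -0.26 to 0.03). Abcb11 was 256 to 288 CPM in females and 238 to 274 CPM in males, a difference of 0.12 (95% interval -0.02 to 0.26). Nr0b2 differed by 0.05 (95% interval -0.34 to 0.44) and Nr1h4 by -0.21 (95% interval -0.45 to 0.03, and -0.11 without M GCV 2). For these 4 genes the intervals do not reach 1 on the log2 scale, so a sex difference of 2-fold lay outside them. Nr1h4 differed more in VEH livers alone, by -0.41 (95% interval -0.75 to -0.07, adjusted p = 0.211 by edgeR), and was not called.

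These directions are relative to the TMM scaling. With total counts as the scale, all genes shift by 0.33 towards females, and the ratio of female to male means becomes 0.06 for Baat, 0.21 for Cyp27a1 and 0.12 for Nr1h4 on the log2 scale, where each was negative under TMM. A change of scale moves every gene of a liver alike, so the direction of these 3 depends on the scale chosen. Under that scale Cyp7b1 was still lower in females (-3.21), Cyp8b1 too (-0.20), and Slc10a1 higher (0.79). Summed levels of the 4 usable stellate cell markers were 276 to 340 CPM in females and 216 to 269 CPM in males, and those of the 2 usable hepatocyte markers, Ttr and Tat, 9601 to 10751 CPM and 10138 to 12020 CPM. Their part in the sex differences was not tested.

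**Figure D1:**
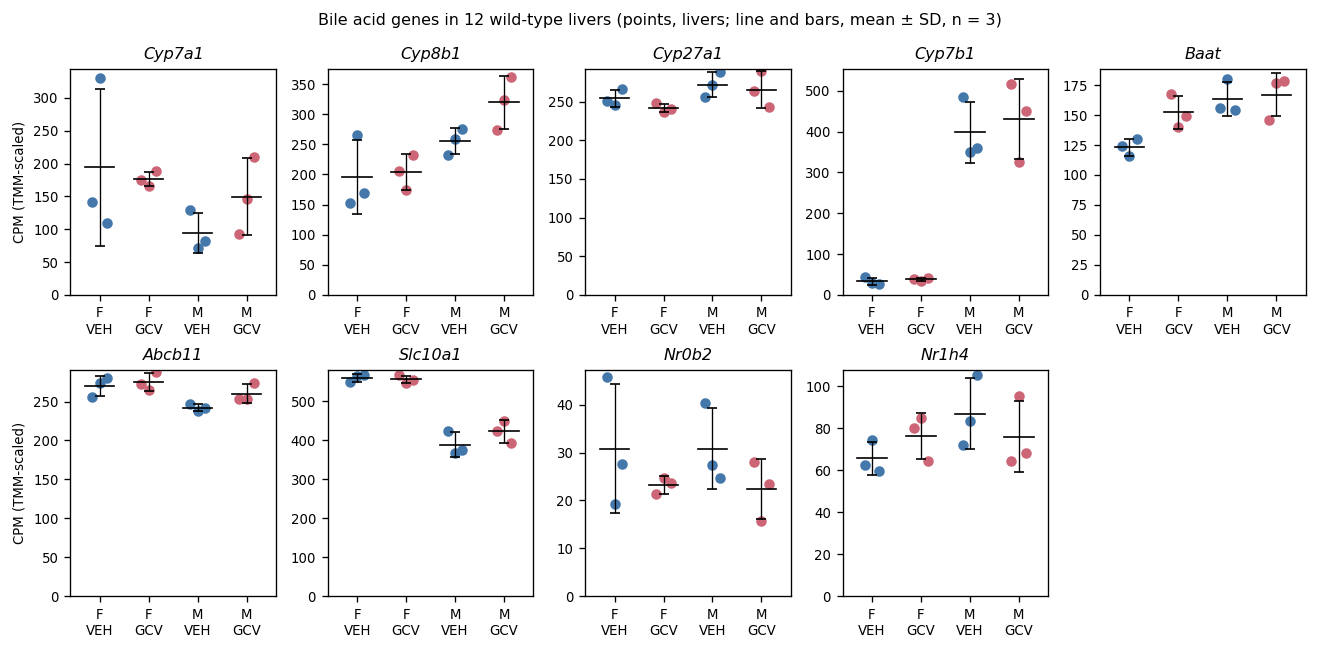
Level of each measured bile acid gene in the 12 wild-type livers, in CPM on a linear axis from 0, by sex and treatment; each point is 1 liver and the line with bars the mean ± SD of 3. Male Cyp7b1 levels (325 to 518 CPM) sit above all female levels (27.5 to 42.6 CPM), and female Slc10a1 levels (548 to 568 CPM) sit above all male levels.

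Ratios of 2 members within a liver do not depend on library scaling. The ratio of Cyp7b1 to Cyp27a1 counts, 2 successive enzymes of the alternative route, was 0.103 to 0.170 in wild-type females (median 0.151) and 1.12 to 1.96 in wild-type males (median 1.57). The ratio of Cyp8b1 to Cyp7a1 was 0.802 to 1.55 in females and 1.73 to 3.61 in males, again without overlap. The ratio of Slc10a1 to Abcb11, uptake against export, was 1.93 to 2.15 in females and 1.44 to 1.78 in males. Of 7 ratios computed, Cyp7b1 to Cyp7a1 also separated the sexes, and the other 3 overlapped. Levels of Cyp7b1 and of Slc10a1 separated the sexes by themselves, so ratios that hold either gene partly repeat that. The share of all gene pairs whose ratios separate the sexes was not computed, so these separations have no background to set them against. Cyp8b1 to Cyp27a1 was 0.607 to 1.08 in females and 0.910 to 1.49 in males, Cyp7a1 to Cyp27a1 was 0.412 to 1.35 and 0.264 to 0.864, and Nr0b2 to Nr1h4 was 0.258 to 0.731 and 0.163 to 0.561. Such a ratio compares livers with one another, not the molar amounts of 2 transcripts, since 3' counting catches each transcript with its own efficiency.

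**Figure D2:**
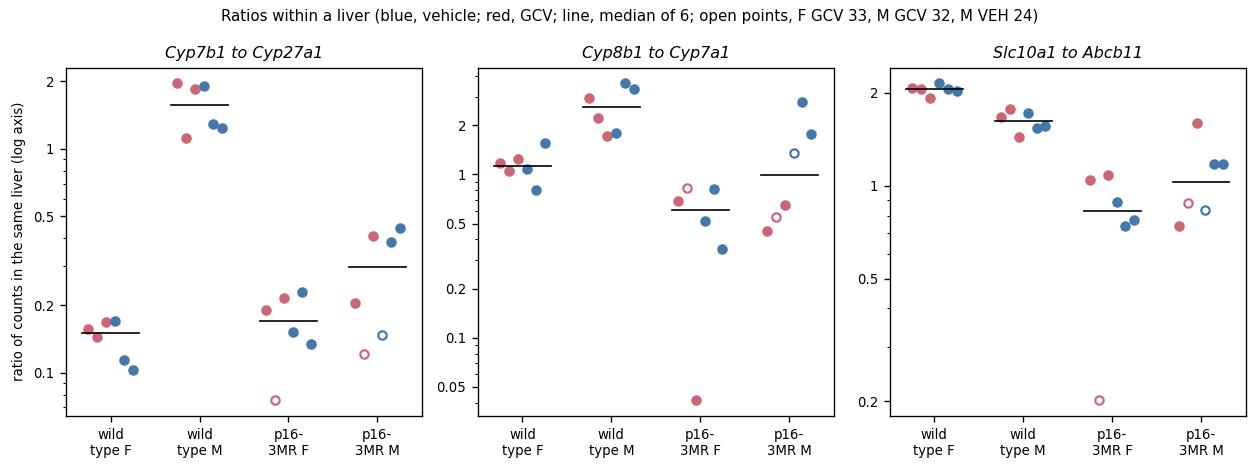
Ratio of counts of 2 genes in the same liver, on a log axis, for 6 livers of each sex and genotype (blue, VEH; red, GCV; line, median; open points, the 3 p16-3MR livers that stood apart). For Cyp7b1 to Cyp27a1 the wild-type sexes are separated (0.103 to 0.170 against 1.12 to 1.96), while the p16-3MR sexes overlap (0.0755 to 0.229 against 0.121 to 0.443). Only ratios that separated the wild-type sexes are drawn.

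The members also differed in how tightly they were held within a group. In the wild-type table the pooled within-group SD of log2 CPM was 0.057 for Abcb11, 0.077 for Slc10a1 and 0.085 for Cyp27a1, and 0.476%, 2.32% and 3.33% of the 8613 genes with a mean of at least 10 counts had a smaller one. Baat followed at 0.13. Cyp7a1 was the most variable member at 0.56, with 92.0% of genes below it, and Nr0b2 came next at 0.42 with 81.0% below. Over those genes the median SD was 0.25. These SDs include counting error, which is smaller for genes with more counts.

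Of a wider list of 41 pathway genes, 26 could be identified in the wild-type table, and 9 were called between the sexes over both treatments, 4 higher and 5 lower in females, against 7.94% of all genes, 3.89% higher and 4.05% lower. Sult2a8, a sulfotransferase of bile acids, was 226 to 345 CPM in females and 449 to 522 CPM in males, a difference of -0.70 (SE 0.08, adjusted p = 2.13e-06). Slc10a2, the sodium-dependent bile acid carrier known from ileum and bile duct cells, was 10.3 to 19.6 CPM against 25.3 to 33.8 CPM, a difference of -1.03 (SE 0.14, adjusted p = 1.98e-05). Cyp39a1, the 7-alpha-hydroxylase of 24-hydroxycholesterol, was 4.65 to 9.78 CPM against 1.16 to 2.62 CPM, a difference of 2.00 (SE 0.29, adjusted p = 4.59e-05). None of these 3 overlapped between the sexes, as for 4.77% of all genes.

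Akr1d1, the reductase that sets the bent ring junction of bile acids, was higher in females by 0.64 (SE 0.10, adjusted p = 0.000266), and the coactivator Ppargc1a by 0.61 (SE 0.14, adjusted p = 0.00823). Hsd17b4, a peroxisomal enzyme of side-chain shortening, was lower by 0.35 on the log2 scale (log2 difference -0.35, SE 0.08, adjusted p = 0.0103). Cyp2c70, which makes muricholic acids in mice, was lower (-0.31, adjusted p = 0.0469 by edgeR), a call that 8 of the 12 fits leaving out 1 liver did not make. Those 8 fits left out F GCV 4, 5 or 6, F VEH 4 or 5, M GCV 1 or 3, or M VEH 1, and gave -0.31 to -0.23 with adjusted p between 0.0657 and 0.144. The last 2 of the 9, named after their values were seen, were the receptor Nr1i3 (0.54, adjusted p = 0.0211, and 0.43 to 0.50 and not called without F GCV 4, F GCV 5 or M GCV 1) and the peroxisomal oxidase Acox2 (-0.31, adjusted p = 0.0243, and -0.31 to -0.25 and not called without F GCV 4, F GCV 5, F VEH 5, M GCV 1, M GCV 3 or M VEH 1). In VEH livers 5 of the 26 were called, against 3.82% of all genes: Sult2a8 (-0.94), Slc10a2 (-1.35), Cyp39a1 (2.01), Hsd17b4 (-0.52, not called without F VEH 5, M VEH 2 or M VEH 3) and Akr1d1 (0.59, not called without F VEH 5, F VEH 6, M VEH 1 or M VEH 2). Over both treatments Hsd3b7 (0.18, adjusted p = 0.138), Slc27a5 (0.15, adjusted p = 0.225) and Fgfr4 (0.28, adjusted p = 0.452) were not called. Fgfr4 was 0.19 without M VEH 1 and 0.39 without M VEH 2.

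GCV in wild-type mice tests the drug without the transgene. No member was called in either sex, in a table where 0.00791% of genes were called in females and 0% in males by edgeR (577 and 640 genes at an unadjusted p under 0.05, with 17 and 1 genes called by DESeq2 and 3 and 0 by limma-voom, none of them a member). Baat in females was 167, 140.1 and 149.5 CPM under GCV and 124, 116 and 129.8 CPM under VEH, a difference of 0.31 (SE 0.11, unadjusted p = 0.0127, adjusted p = 1). Its groups did not overlap, as in 10% of all genes in that comparison. In males Cyp7a1 differed by 0.67 (SE 0.31, 95% interval 0.03 to 1.31, adjusted p = 0.889) and Cyp8b1 by 0.32 (SE 0.16, adjusted p = 0.889), both with overlapping groups. Abcb11 in males was 253, 254 and 274 CPM under GCV and 248, 238 and 241 CPM under VEH, without overlap (8.85% of all genes), a difference of 0.10 (SE 0.09, adjusted p = 0.914). Without M GCV 3, the highest of these livers, the Abcb11 difference was 0.065. Nr0b2 was -0.42 in females and -0.47 in males (95% intervals -0.96 to 0.12 and -1.03 to 0.08). Without F VEH 4, the highest liver, the female value was -0.0086, and without M VEH 1, the highest male, the male value was -0.24. Without M GCV 2, the lowest male, it was -0.25. The male Cyp7a1 value likewise ran from 0.36 without M GCV 3 to 0.96 without M VEH 1. Of the wider list, 0 of 26 were called in either sex by edgeR, DESeq2 or limma-voom. For Cyp27a1, Abcb11 and Slc10a1 the 95% intervals lay between -0.28 and 0.32 in both sexes.

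Whether the response to GCV differed between the sexes was tested by the interaction, which called no member (0.00791% of genes called). The difference in response, female minus male, was -0.80 for Cyp7a1 (95% interval -1.69 to 0.09, and -0.18 without F VEH 5), 0.41 for Nr1h4 (95% interval -0.08 to 0.89, with 0.24 without M VEH 3 and 0.62 without M GCV 2) and 0.27 for Baat (95% interval -0.06 to 0.61).

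In the old p16-3MR livers the members were far more scattered, and none was called in any comparison. Cyp7a1 is the widest example. In females it was 107, 17.8 and 509 CPM under GCV (livers 31, 33 and 35) and 355, 99.8 and 212 CPM under VEH (27, 28 and 29). In males it was 61.0, 3.02 and 129.7 CPM under GCV (30, 32 and 34) and 26.1, 37.5 and 73.8 CPM under VEH (24, 25 and 26). Among VEH livers every female lay above every male, which 9.34% of all genes also showed in one direction or the other, while under GCV the sexes overlapped. The pooled within-group SD of log2 CPM was 1.94 for Cyp7a1, 1.83 for Slc10a1 and 1.66 for Slco1b2, larger than in 98.1%, 97.4% and 95.6% of 12409 genes, whose median was 0.61. The least scattered member, Cyp27a1, had an SD of 0.91.

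The 3 livers named above were low for nearly every member. In M GCV 32 all 10 members were lower than in any of the 4 other males outside those 3, at 1.77% to 16.9% of their median. M VEH 24 was lowest in this way for 9 members, at 12.5% to 49.1% of the median. F GCV 33 was below the 5 other females for 9 members, at 3.54% to 73.6%. Its hepatocyte markers summed to 161976 CPM, the highest of the 12 livers on the TMM scale. Its TMM factor of 0.259 raises all its levels above those relative to total counts, so this rank depends on the scaling. Slco1b2, which has no wild-type value, shows the pattern: 205, 22.4 and 725 CPM in females under GCV, 758, 633 and 605 CPM under VEH, 275, 52.9 and 610.1 CPM in males under GCV and 189, 754 and 792 CPM under VEH. Dbp, 1 of 12 listed clock genes and named beyond the rule given below, is a clock output factor that acts on the Cyp7a1 promoter. Dbp was 0.964, 61.0 and 100.5 CPM in the GCV females and 0.938 to 2.46 CPM in the VEH females. Its male values and the other clock genes are not given here. The part of library composition and of Dbp in the members' values was not tested.

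**Figure D3:**
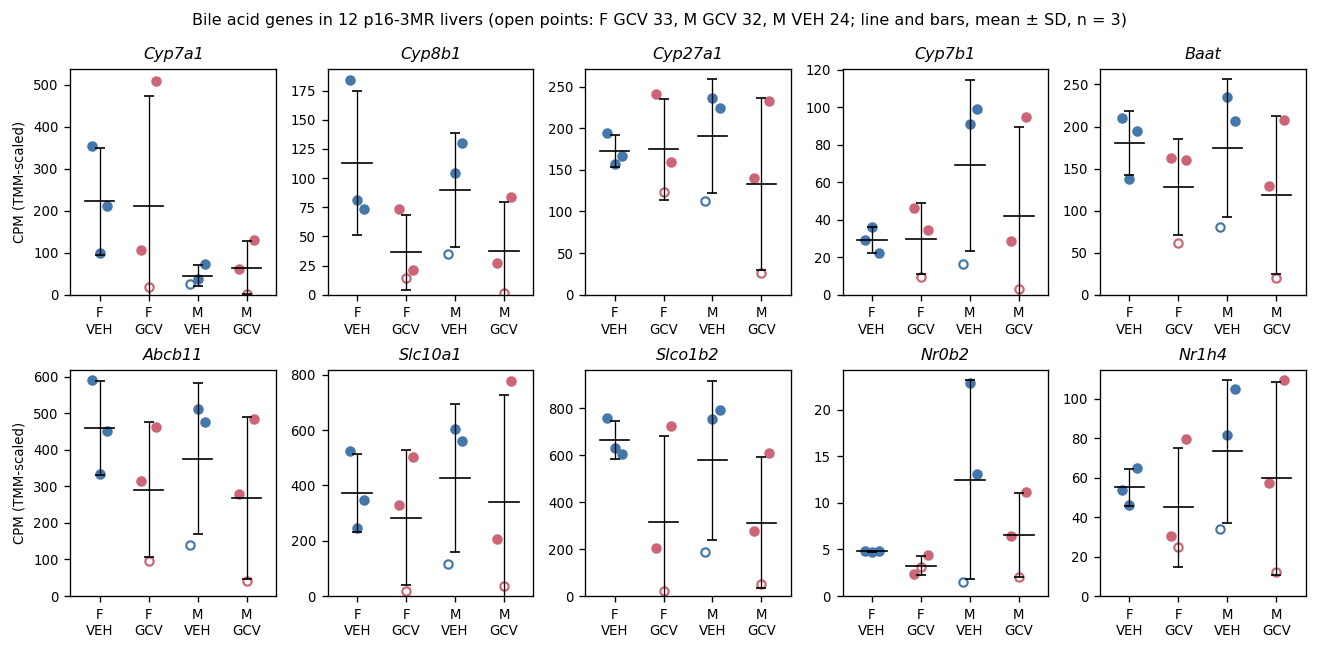
Level of the 10 bile acid genes in the 12 p16-3MR livers, in CPM on a linear axis from 0, by sex and treatment; each point is 1 liver, open points are F GCV 33, M GCV 32 and M VEH 24, and the line with bars is the mean ± SD of 3. The open points sit at or near the bottom of most panels, as for Slc10a1 (19.3, 37.2 and 117 CPM).

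The comparison of GCV with VEH in p16-3MR mice asked whether GCV, given to remove p16-active cells, moves the pathway. Removal itself was not measured here, and the paper allows that it may have been incomplete in males. In females 0 of 10 members were called (0% of all genes by edgeR, with 1603 genes at an unadjusted p under 0.05, and 86 genes called by DESeq2 and 7 by limma-voom, none of them a member). Cyp8b1 had the largest difference, with 73.3, 14.7 and 21.1 CPM under GCV and 184, 80.9 and 73.8 CPM under VEH. The groups did not overlap, but liver 31 lay within 1 CPM of the lowest VEH liver, and 13.3% of all genes did not overlap in that comparison. Its log2 difference was -1.62 (SE 0.96, 95% interval -3.68 to 0.45, adjusted p = 0.688), and ran from -2.64 without F GCV 31 to -1.07 without F VEH 27. Nr0b2 was the other member without overlap, at -0.54 (95% interval -2.23 to 1.15, and -0.88 without F GCV 35 or -0.31 without F GCV 31). Cyp7b1 differed by 0.06 (95% interval -1.84 to 1.96). The median over the 10 members was -0.44, against 0 over all genes. The GCV females include liver 33, which was low for 9 members. Summed stellate cell markers were 163 to 305 CPM in GCV females and 325 to 377 CPM in VEH females, and summed Kupffer cell markers 108 to 322 CPM and 291 to 932 CPM, whose part in the values was not tested.

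In males 0 of 10 members were called (0% of all genes by edgeR, with 416 genes at an unadjusted p under 0.05, and 5 genes called by DESeq2 and 145 by limma-voom, none of them a member). Cyp8b1 again had the largest difference, -1.26 (SE 0.95, 95% interval -3.31 to 0.78, adjusted p = 1), with 27.3, 1.66 and 83.8 CPM under GCV and 35.1, 104 and 130.0 CPM under VEH. It was -2.64 without M GCV 34 and -0.72 without M GCV 32. Cyp7a1 differed by 0.49 (SE 1.08), and by -0.52 without M GCV 34. Groups overlapped for every member, and did not for 6.4% of all genes. The median over the members was -0.54, against 0.04 over all genes. The GCV males include liver 32, low for all 10 members, and the VEH males liver 24, low for 9. Summed levels of 6 cholangiocyte (bile duct cell) markers were 86.4 to 143 CPM in GCV males and 50.3 to 64.1 CPM in VEH males. Their part in the values was not tested. The interaction of sex and treatment called no member (0% of all genes, with 822 at an unadjusted p under 0.05), and the members' values ran from -0.56 to 0.77 with SEs of 0.85 to 1.52. With SEs of this size, a 2-fold fall was not excluded: -1 on the log2 scale lay inside the 95% interval of GCV over VEH for each of the 10 members in both sexes.

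**Figure D4:**
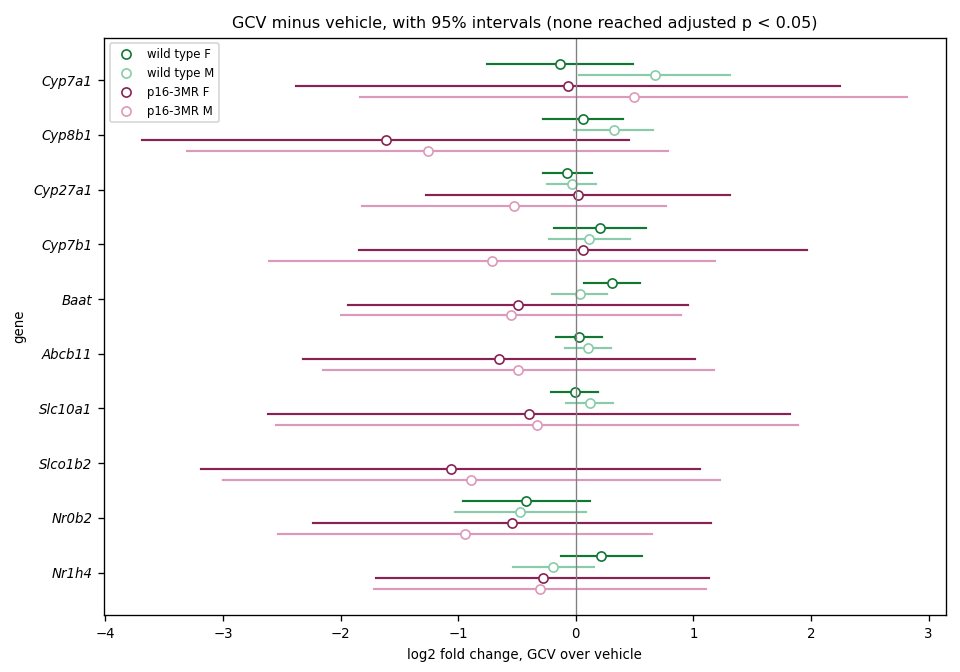
Log2 fold change of GCV over VEH for each member in each sex and genotype (points, with 95% intervals from edgeR; open points, adjusted p of 0.05 or more). The wild-type intervals are narrow and the p16-3MR intervals wide, and no member passed the threshold, the value of largest size being -1.62 for Cyp8b1 in p16-3MR females.

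Between the sexes of the p16-3MR mice no member was called either, in a comparison where 0.303% of genes were (0.188% higher and 0.115% lower in females). The sexes overlapped for every member, and did not for 0.616% of all genes. Summed levels of the 7 hepatocyte markers were 107098 to 161976 CPM in GCV females and 87667 to 118789 CPM in VEH females. In males these sums were 26068 to 87119 CPM under GCV and 40970 to 86614 CPM under VEH. On the TMM scale each lay below every female, though narrowly for M GCV 30 (87119 CPM) against F VEH 29 (87667 CPM). With total counts as the scale, all genes shift by -0.61 on the log2 scale, female over male, so this separation depends on the scaling. Their part in the sex differences was not tested. Cyp7a1 was 17.8 to 509 CPM in females and 3.02 to 129.7 CPM in males, a difference of 2.00 (SE 0.79, 95% interval 0.30 to 3.70, unadjusted p = 0.0244, adjusted p = 0.685), and 1.12 without F GCV 35, its highest liver. Cyp7b1 was 9.27 to 46.1 CPM in females and 3.22 to 99.4 CPM in males, a difference of -0.85 (SE 0.63, 95% interval -2.20 to 0.50), and -0.14 without M GCV 34. Its interval lies above the wild-type interval of -3.82 to -3.27, but the tables differ in age and batch and the difference between them was not tested. In VEH livers the values were 2.28 for Cyp7a1 (adjusted p = 1) and -1.23 for Cyp7b1 (adjusted p = 1), where 0.12% of genes were called, 0.0827% higher and 0.0368% lower.

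Nr0b2 had few counts in p16-3MR livers, 4 to 38 per female library and 13 to 128 per male library. Its levels were 2.31, 3.09 and 4.36 CPM in GCV females and 4.83, 4.77 and 4.78 CPM in VEH females. In males they were 6.48, 2.05 and 11.1 CPM under GCV and 1.52, 22.9 and 13.1 CPM under VEH, the low value of each trio coming from livers 32 and 24. The difference was -1.17 (SE 0.54, unadjusted p = 0.0488, adjusted p = 0.686). Without F GCV 33, M GCV 32 and M VEH 24, a choice made after seeing the data, Nr0b2 was called at -1.64 (adjusted p = 0.00962), where 178 of 21755 genes were called, and in VEH livers at -1.88 (adjusted p = 0.0330), where 120 were. With all 12 livers the VEH value was -1.37 (adjusted p = 1). A single male moved both values the other way: without M VEH 25, the highest liver, they were -0.79 over both treatments and -0.60 in VEH livers, and not called.

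Of the wider list, 39 genes were in the p16-3MR table and 1 was called between the sexes over both treatments, by edgeR, with 0 in the treatment comparisons and in VEH livers. DESeq2 called 1 in GCV females, 0 in GCV males and 1 in VEH livers, and limma-voom 0, 1 and 2. Between the sexes over both treatments DESeq2 and limma-voom each called 2 of the list, among 200 and 215 of all genes, and edgeR 5, among 178, without F GCV 33, M GCV 32 and M VEH 24. In VEH livers edgeR called 1 without M GCV 32, M GCV 34 or M VEH 24. Slco1a1, an uptake carrier of the same family as Slco1b2, had 0 to 3 counts in each of the 6 female libraries, at or under the floor of 3 counts, and the males had 7.75, 0.195 and 35.2 CPM under GCV and 14.8, 237 and 348 CPM under VEH. M GCV 32, with 2 counts, was also under the floor and within the female range, so the sexes overlapped, and the other 5 males lay above every female. It was called lower in females (adjusted p = 0.00911), and not without F GCV 31, F GCV 33 or F GCV 35 (adjusted p = 0.0547, 0.0592 and 0.0747). Slco1a4, another carrier of that family, was 12.3 to 90.6 CPM in females and 5.17 to 26.5 CPM in males, a difference of 1.48 (SE 0.45, adjusted p = 0.477).

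**Figure D5:**
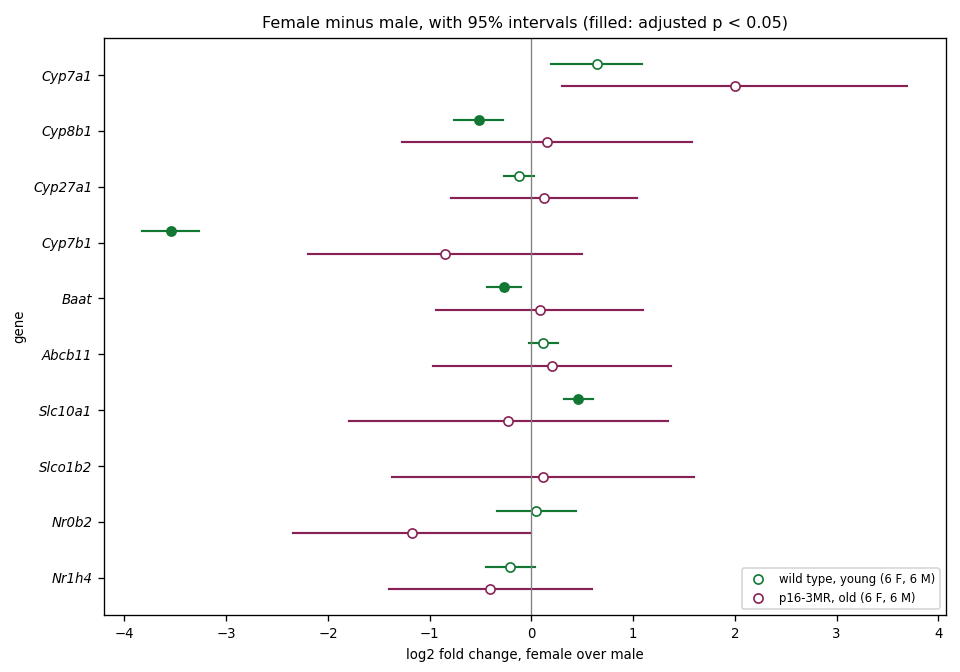
Log2 fold change of females over males across both treatments for each member, in 12 wild-type and 12 p16-3MR livers (points, with 95% intervals from edgeR; filled points, adjusted p under 0.05). The 4 filled points are all wild type, led by Cyp7b1 at -3.55, and the p16-3MR intervals are several times wider.

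The genes whose centred log2 CPM lay closest to 3 members over the 12 livers of each table were listed by root mean square difference, as a description. In wild-type livers Cyp7b1 was nearest to Gstp1 (0.23), Kdm5d (0.37) and Susd4 (0.41), against a root mean square of 1.78 for Cyp7b1 itself. Cyp7a1 was nearest to C330018D20Rik (0.27) and Nr0b2 to Farsa (0.25). In p16-3MR livers Cyp7b1 was nearest to Mgst1 (0.44), Glyat (0.44) and Cmah (0.46), Cyp7a1 to Hamp (0.80) and Nr0b2 to Plekhb1 (0.54). All livers of a table share the library differences given above, and likeness across them includes those.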

How the data were processed

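RNA from 24 mouse livers was sequenced by Smart-3SEQ, which reads the 3' ends of transcripts. The authors checked reads with FastQC 0.11.9, trimmed them with Trim Galore 0.6.10, quantified them with Salmon 1.10.3 (build mm10 in the submitters' notes), summed them to genes and excluded genes under 3 reads. The deposited values are estimated counts (expected counts) per gene, whole numbers not scaled for library size. No column was left out. Rows of the p16-3MR table carry Ensembl IDs, of which 21698 of 21755 have a GENCODE M21 symbol. Labels of the wild-type table lack 9 lower-case letters, and 10496 of 12643 fitted exactly 1 symbol.

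Each table was fitted on its own with edgeR 4.0.16 in R 4.3.3: TMM scaling, 1 mean per group over 12 livers, quasi-likelihood tests and Benjamini-Hochberg adjustment over all rows, with calls at an adjusted p under 0.05. Log2 CPM used a prior count of 2. The 5 contrasts per table were GCV against VEH in each sex, their difference, and females against males over both treatments and in VEH. The fits were tested on simulated data. Intervals cover 95%. The floor of 3 counts covers counting error only, and whether molecular identifiers were used is not given in the sources used here. Alternatives were DESeq2 1.42.0, limma 3.58.1 (voom with quality weights), DESeq2's size factors in edgeR, removal of mitochondrially encoded genes, filterByExpr, single-sex fits, an adjusted p under 0.1, blocking by replicate number (wild type only), other scalings and priors, and each liver left out. The naming rule took all 10 members, the called genes of the wider list, up to 6 per comparison by adjusted p, and 8 fixed others, including Slco1a1, Slco1a4, Cyp2c70, Hsd3b7, Slc27a5 and Fgfr4. Members not named in a comparison are covered by its counts and figures, and genes named beyond the rule are marked. The members, lists and tests were chosen with earlier results of these data known. Figures used matplotlib 3.10.9.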

Additional observations from a re-analysis of the deposited data

How the results depend on the processing

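In wild-type livers the sex calls of Cyp7b1, Slc10a1 and Cyp8b1 over both treatments kept their direction and side of the threshold in every alternative fit and with each liver left out. Baat kept its call in every alternative fit of the 12 livers but not with every liver left out. Its log2 ratio of female to male means was -0.26 under TMM and 0.06 with total counts, a scale that shifts all genes by 0.33. Between 3 and 5 members were called with 1 liver left out (2 to 4 in VEH livers), and 788 to 1257 genes (319 without M VEH 3 to 716 without M VEH 1 in VEH). Cyp2c70 was not called with filterByExpr (adjusted p = 0.0554), and at an adjusted p under 0.1 Cyp7a1 was called (0.0729, and 0.0622 in VEH).

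The treatment counts moved more. In p16-3MR females 0 genes became 86 with DESeq2, 7 with limma-voom, 3 in a fit of the 6 females and 4 without F GCV 33, M GCV 32 and M VEH 24. In p16-3MR males 0 became 5, 145 and, without those 3 livers, 5, and for the interaction 0 became 3, 1 and 2. In both sexes 0 to 1 genes were called with 1 liver left out. Between the p16-3MR sexes 66 became 200, 215 and 178 (50 to 77 with 1 left out), and in VEH 26 became 99, 154 and 120 (17 without M VEH 26 to 35). Without the 3 livers 1 member, Nr0b2, was called in each of these. In wild-type females 1 gene became 17 with DESeq2, 3 with limma-voom, 0 with filterByExpr, 2 at an adjusted p under 0.1, 44 in a fit of the 6 females and 0 to 12 with 1 left out (12 without F VEH 5). In wild-type males 0 became 1 with DESeq2, and 0 to 46 with 1 left out (46 without M VEH 1, 4 without M GCV 2). For the interaction 1 became 0 with filterByExpr and 0 to 17 with 1 left out (17 without M VEH 1). The causes were not tested.

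With a replicate block the wild-type counts were 106 genes in females, 68 in males and 79 for the interaction, and 1 member, Cyp7a1 in males, was called (0.66, adjusted p = 0.00595), as was 1 gene of the wider list in females. Same-numbered livers correlated at -0.057 to 0.0018 in females and -0.066 to 0.28 in males, and 0 of 3 and 2 of 3 livers correlated best with their own number, so the numbers were not taken to pair the livers.

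Among the values recomputed, which did not cover every member in every comparison, these changed sign with 1 liver left out, none of them called: Cyp7b1 in GCV-treated p16-3MR females (-0.37 to 0.40), Cyp7a1 in GCV-treated p16-3MR males (-0.52 to 1.02), Abcb11 in GCV-treated wild-type females (-0.0082 to 0.056) and Nr0b2 between wild-type sexes (-0.16 to 0.17). Ratios with a prior of 0.5 moved by less than the spread. Of the nearest genes, 0 to 1 of 3 were shared with z-scored profiles for Cyp7a1 and Nr0b2, and for Cyp7b1 1 of 3 in wild-type and 2 of 3 in p16-3MR livers. Few counts limit the values of Nr0b2 and Slco1a1 in p16-3MR females.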
